A study of Mus musculus with 32 samples.

Results

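The genes examined were 10 members of the muscarinic receptor and Gq calcium pathway, chosen by name: the receptors Chrm1 and Chrm3, the G protein subunits Gnaq and Gna11, the phospholipase Plcb3, the calcium channels Itpr2 and Itpr3, the kinases Prkcd and Prkca, and the regulator Rgs2. The count table lists 23517 genes, and all 10 members are among them. Over the 16 sums described next, 7 of the 10 members passed edgeR's filter on low counts, as did 10280 of all genes. Chrm1, Chrm3 and Itpr2 did not.

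Cells came from colonoids, epithelial organoids grown from proximal colon crypts of Lgr5-EGFP-IRES-CreERT2 mice, in which EGFP and CreERT2 are expressed from the Lgr5 locus, a stem and progenitor cell gene. Colonoids of each of 8 mice were left untreated or received 250 nM bethanechol (Bch), a muscarinic receptor agonist, for 4 days in L-WRN medium, and Lgr5-EGFP+ cells were sorted. Mice BR1 to BR4 are labelled male. Mice BR7 to BR10 carry no sex in their labels and were taken as female because the series counts 4 mice of each sex. The labels of BR7 to BR10 also name another RNA kit and another source, so sex, kit and source cannot be told apart, and the sets are called BR1-BR4 and BR7-BR10. Ages are not given in the sources used here. Each mouse and treatment had 2 technical replicate libraries, which were summed to 16 sums of 557512 to 4050342 unique molecular identifiers (UMIs). Untreated mouse BR3 was the shallowest sum, and untreated mouse BR1 came from 13114 sorted cells where the other sums came from 2361 to 3504.

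Acetylcholine released by nerves and by some epithelial cells acts on the gut epithelium through muscarinic receptors. M1 and M3 receptors couple to G proteins of the Gq family, whose alpha subunits activate phospholipase C beta. This enzyme splits a membrane lipid into inositol trisphosphate (IP3), which opens calcium channels of the endoplasmic reticulum, and diacylglycerol, which together with calcium activates protein kinase C. RGS proteins end the signal by speeding the hydrolysis of GTP on the alpha subunit. In the colon this pathway is best known for driving chloride secretion.

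The labelled cell type was checked against markers. Lgr5 was found in all 16 sums at 12.4 to 38.6 CPM (UMIs per 1000000 UMIs, scaled by TMM), and the summed level of 5 epithelial genes, among them Epcam and Krt8, was between 4623 and 6005 CPM. The 8 stem genes summed to 636 to 1042 CPM. Genes of differentiated epithelial cells were present in every sum as well, so the sorted cells did not carry stem genes alone. The 8 goblet genes summed to 3489 to 14015 CPM, 8 colonocyte genes to 623 to 1722 and 8 enteroendocrine genes to 293 to 1117. Goblet sums rested mostly on Spink4, Agr2 and Tff3, at 2603, 1890 and 916 CPM of all UMIs pooled, with Zg16 at 33.1 and Clca1 at 9.46. Colonocyte sums rested mostly on Car1 and Guca2a, at 737 and 325, with Slc26a3 at 6.67 and Car4 at 0.799. Tuft cell genes summed to 2.14 to 15.2 CPM. Neuron and glia genes, of which 6 of 8 are listed, summed to 0.602 to 8.74 CPM. Smooth muscle and fibroblast genes, with 3 of 8 listed, reached at most 5.24 CPM, and immune genes, with 5 of 6 listed, at most 3.27 CPM. Bulk counts cannot tell fewer cells of a type from less RNA per cell.

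The cDNA was primed with oligo-dT, so a UMI marks the 3′ end of a molecule and levels of different genes can be compared without a correction for length. The genes of the receptors lie at chr19:8663789-8683587 (Chrm1, plus strand) and chr13:9875486-10360847 (Chrm3, minus strand) of GRCm38, those of the alpha subunits at chr19:16132831-16387463 (Gnaq) and chr10:81528724-81545190 (Gna11). The annotated 3′ ends are given as a description, since where the reads mapped was not examined. For each gene the coding transcript that reaches farthest downstream was read from GENCODE M21 (GRCm38), and its last 50 bases were searched on the sense strand for the polyadenylation hexamers AATAAA and ATTAAA. Such a hexamer was found for 8 of the 10 members and for 15838 of 21840 coding genes (72.5%). Both receptors lack it in this window, which says only that these letters are absent there. The lines give 30 bases of the transcript strand, with the hexamer in capitals, for the G protein subunits, the phospholipase and the IP3 receptor that carried most UMIs, and the last 30 annotated bases for the receptors. Chrm1 is on the plus strand at chr19:8683558-8683587, Chrm3 on the minus strand at chr13:9875486-9875515, Gna11 on the minus strand at chr10:81528730-81528759, Gnaq on the plus strand at chr19:16387423-16387452, Plcb3 on the minus strand at chr19:6953716-6953745 and Itpr3 on the plus strand at chr17:27122187-27122216.
Chrm1: tatgtctcatccataaacttttttattatt
Chrm3: tttatataaagaatatttatgcatacttta
Gna11: gttttaaatcggAATAAAttttgttcctaa
Gnaq: taacccatataaAATAAAgtgtacccaaat
Plcb3: gttttttacatgAATAAAagtggacttcag
Itpr3: ttaattgccttaAATAAAttaatagactcc

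Receptor transcripts were rare. Chrm1, which encodes the M1 receptor, held 28 UMIs in the 16 sums together, or 0.860 CPM of all UMIs, with an exact 95% Poisson interval of 0.572 to 1.24 that covers counting error only. Chrm3, which encodes the M3 receptor, held 12 UMIs, or 0.369 CPM (0.191 to 0.644). Of the listed genes, 40.8% had a lower total than Chrm1 and 31.2% a lower total than Chrm3. Set against the 57380 sorted cells, this is 1 Chrm1 UMI for every 2049 cells and 1 Chrm3 UMI for every 4782, at a capture of 158 to 1350 UMIs of all genes per sorted cell. Chrm2, Chrm4 and Chrm5, the other muscarinic receptors, are not among the genes listed, whose smallest total was 1 UMI. No level can be given for them.

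By mouse, Chrm1 had 0, 0, 0 and 2 UMIs in untreated BR1, BR2, BR3 and BR4 and 3, 1, 0 and 1 with Bch. In BR7, BR8, BR9 and BR10 it had 0, 4, 5 and 3 UMIs untreated and 1, 5, 1 and 2 with Bch. The BR7-BR10 sums thus held 21 of the 28 UMIs. Chrm1 was seen in 7 of their 8 sums against 4 of 8 in BR1-BR4. The BR7-BR10 sums also held 18250185 of the 32544115 UMIs of all genes. Relative to these totals, Chrm1 was at 1.15 CPM (0.712 to 1.76) in BR7-BR10 and at 0.490 (0.197 to 1.01) in BR1-BR4. These Poisson intervals overlap. Chrm3 had 2, 0, 1 and 0 UMIs in untreated BR1 to BR4 and 0, 0, 1 and 0 with Bch. In BR7 to BR10 it had 0, 0, 0 and 4 UMIs untreated and 2, 0, 0 and 2 with Bch. It was absent from 10 of the 16 sums, and BR10 alone gave 6 of its 12 UMIs in both treatments together.

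What a sum without a UMI allows depends on its depth. Taking 3 UMIs as the 95% limit, 0 UMIs of a receptor left room for a level of 5.38 CPM in untreated BR3 and of 0.741 CPM in Bch-treated BR8, the deepest sum. The level of 3 UMIs was reached by Chrm1 in 5 sums and by Chrm3 only in untreated BR10, at 4 UMIs. The technical replicates of a sum differed less than independent draws of UMIs would, with a variance of 0.622 to 0.726 of the binomial one for genes of 2 to 5 UMIs. The intervals and the limits treat the UMIs of both libraries as independent. In single libraries 3 UMIs gave 11.23 and 10.33 CPM in untreated BR3 and 1.554 and 1.415 CPM in Bch-treated BR8. Whether the same molecules were counted in both was not tested. With technical replicate 1 alone, 14 Chrm1 UMIs gave 0.902 CPM (0.493 to 1.51) and 7 Chrm3 UMIs 0.451 CPM (0.181 to 0.930). With replicate 2 alone the levels were 0.822 CPM (0.449 to 1.38) and 0.294 CPM (0.0953 to 0.685). Chrm1 was found in both libraries of 6 sums, in 1 library of 5 and in neither of 5.

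**Figure D1:**
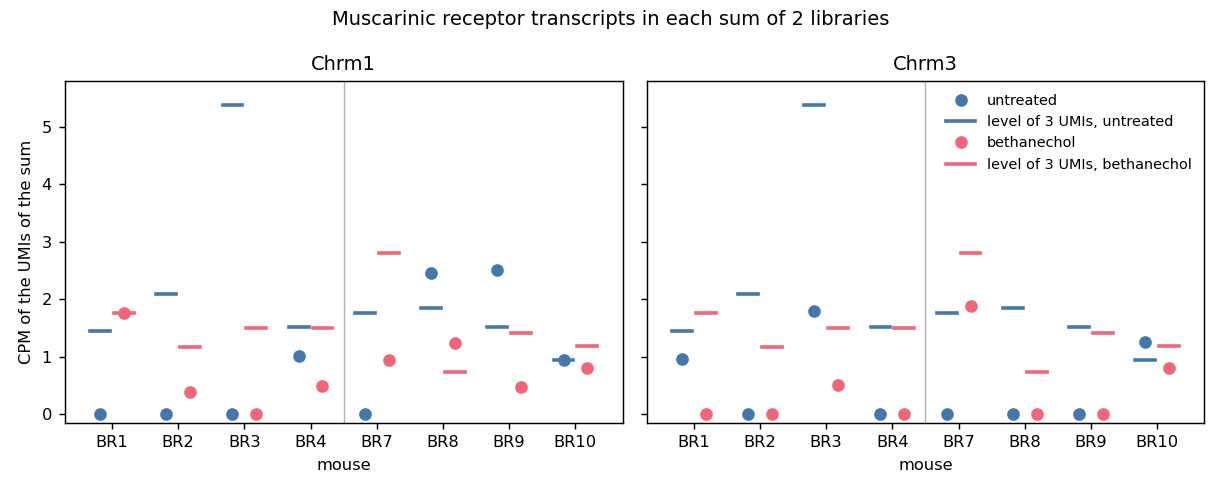
Levels of Chrm1 (left) and Chrm3 (right), in CPM of the UMIs of each sum, for each mouse on the horizontal axis, untreated in blue and bethanechol in red, with short lines at the level that 3 UMIs give in that sum. The only points on or above their line are 5 for Chrm1 and 1 for Chrm3, and the line is highest, at 5.38, for untreated BR3.

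No change of receptor transcripts with Bch was detectable at this depth. Over 8 mice, Chrm1 was 0.867 ± 1.09 CPM (SD, n = 8) untreated and 0.762 ± 0.553 (SD, n = 8) with Bch, higher in 3 mice, lower in 4 and at 0 in both sums of 1. The difference was -0.11 CPM ± 1.20 (SD, n = 8; two-sided exact sign-flip permutation test, p = 0.797). In BR7-BR10 Chrm1 was 1.48 ± 1.23 CPM untreated and 0.860 ± 0.317 with Bch, lower in 3 of 4 mice (SD, n = 4, exact p = 0.375). In BR1-BR4 it was 0.252 ± 0.505 untreated and 0.664 ± 0.766 with Bch, higher in 2 mice and lower in 1 (SD, n = 4, exact p = 0.75). With 4 mice this test cannot reach p under 0.05. The pooled ratio of Bch to untreated was 0.807, from 14 UMIs in each treatment, with an exact 95% interval of 0.356 to 1.83. A fall to 0.356 of the untreated level or a rise to 1.83 times that level thus lies within counting error alone. With technical replicate 1 alone the interval was 0.242 to 2.71, and with replicate 2 alone 0.241 to 2.68.

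For Chrm3 the difference over 8 mice was -0.11 CPM ± 0.945 (SD, n = 8, exact permutation p = 0.875), from 0.502 ± 0.728 untreated to 0.397 ± 0.670 with Bch. Its pooled ratio was 0.576, from 7 UMIs untreated and 5 with Bch, with an interval of 0.144 to 2.11. With technical replicate 1 alone the interval was 0.0890 to 3.59, and with replicate 2 alone 0.0447 to 4.68. In BR7-BR10 Chrm3 had 4 UMIs in each treatment. Its direction there depended on the average: the mean over mice was 0.354 CPM higher with Bch (exact permutation p = 1, 4 mice), while the pooled ratio was 0.871 (0.162 to 4.68). In BR1-BR4 it had 3 UMIs untreated and 1 with Bch, a mean 0.565 CPM lower (exact permutation p = 0.5, 4 mice). Neither receptor passed the filter, and a fit to all genes without the filter gave log2 fold changes over 8 mice of -0.07 (95% interval -1.75 to 1.62) for Chrm1 and -0.31 (-2.81 to 2.19) for Chrm3. Between untreated sets, Chrm1 was higher in BR7-BR10, at 12 UMIs against 2, by 2.01 on the log2 scale in that fit without passing the threshold (-0.28 to 4.31, adjusted p = 0.635).

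Downstream members were measured at higher pooled levels than the receptors. Over the 16 sums, the order was Gna11 at 99.0 CPM, Plcb3 at 32.9, Prkca at 17.6, Itpr3 at 11.0, Gnaq at 10.3, Prkcd at 9.16, Rgs2 at 3.53 and Itpr2 at 2.15, then Chrm1 and Chrm3. The range of Gna11 over the sums lay above that of Plcb3 without overlap. Plcb3 was above Prkca in 15 of 16 sums, and Prkca was above Itpr3 in 15. From Plcb3 down, the ranges of all neighbours overlapped. Prkcd was above Rgs2 in 14 sums and Itpr2 above Chrm1 in 10, each below in 2. Itpr3 was above Gnaq in 11 sums and below in 4, as was Rgs2 against Itpr2, whose mean over both treatments was lower than that of Rgs2 in 8 of 8 mice. Gnaq was above Prkcd in 7 and below in 9. Chrm1 was above Chrm3 in 8 sums and below in 5, so the order of the receptors was not resolved beyond their spread, nor was that of Itpr3, Gnaq and Prkcd. Within groups of 4 mice, the coefficient of variation of the TMM-scaled CPM was 15.7% for Gna11, against 7.82% from counting alone, and 28.3% for Prkcd, against 25.4%. For the receptors it was 125% for Chrm1 and 169% for Chrm3, where counting alone gives 104% and 143%.

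Over the 16 sums pooled, 1 member held most UMIs of each gene family except among the protein kinases C. Gna11 held 83.9% of the 3839 UMIs of the Gq family alpha subunits, Gnaq 8.70%, Gna14 6.75% and Gna15 0.625%. Plcb3 held 85.1% of the 1259 phospholipase C beta UMIs, with Plcb4 at 12.9% and Plcb1 and Plcb2 at 17 and 8 UMIs. Among the IP3 receptors Itpr3 held 61.7% of 582 UMIs, Itpr1 26.3% and Itpr2 12.0%. Among the 7 protein kinases C counted here, the atypical Prkci held 37.0% of 2416 UMIs, the conventional Prkca 23.7%, the atypical Prkcz 20.8% and Prkcd 12.3%. Prkcb had 1 UMI. Gna11 was the leading alpha subunit in every sum, at 74.1% to 90.0% of its family. By sum, Plcb3 ran from 61.5% to 95.4% of its family and Itpr3 from 41.0% to 87.5%. The kinase order did not hold in every sum, with Prkci between 23.7% and 49.2% and Prkca between 12.1% and 36.6%.

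**Figure D2:**
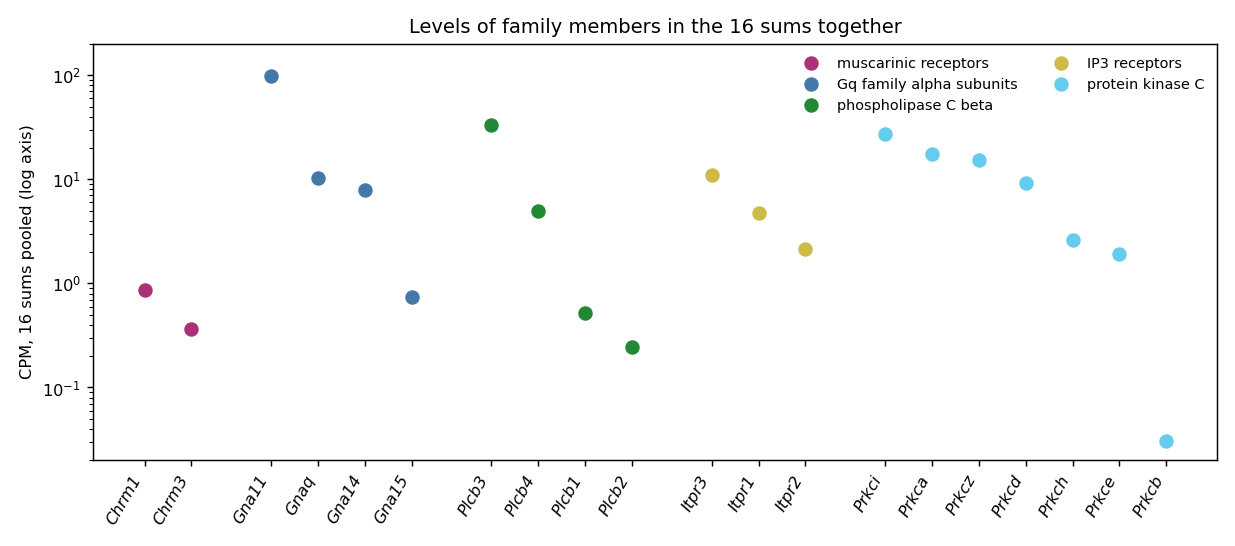
Levels of the genes of 5 families in CPM over the 16 sums pooled, on a log axis, with genes on the horizontal axis and 1 colour per family. Gna11, at 99.0, stands above its relatives, Plcb3 and Itpr3 lead theirs, and both muscarinic receptors are below 1.

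No member changed with Bch past the adjusted threshold of 0.05 in either set or over all 8 mice. In BR7-BR10 6 members could be tested, with 0 called, where 0% of 9515 genes were called by edgeR's quasi-likelihood test. In BR1-BR4 7 members could be tested, with 0 called, where 0.021% of 9509 genes were. Over 8 mice 0 of 6 members were called, as were 0% of 9366 genes. DESeq2 called 0 genes in BR7-BR10 and over 8 mice and 14 in BR1-BR4, where its own filter left the members without an adjusted p. No member had an unadjusted p under 0.05 in these comparisons by either tool, where edgeR gave 3.78% of genes such a p in BR7-BR10, 7.72% in BR1-BR4 and 5.45% over 8 mice. No tested member moved the same way in all 4 mice of a set, as 11.4% of genes did in BR7-BR10 and 15% in BR1-BR4, or in all 8 mice, as 0.961% did.

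Gna11, the most abundant alpha subunit of the Gq family, had the narrowest interval among the members. Untreated it was at 101, 83.1, 126 and 72.6 TMM-scaled CPM in BR1 to BR4 and at 89.0, 104, 102 and 116 in BR7 to BR10. With Bch it was at 105, 96.1, 89.0 and 89.5 in BR1 to BR4 and at 92.1, 97.9, 121 and 88.3 in BR7 to BR10. The treatments overlapped in both sets, and 5 mice were higher with Bch and 3 lower. The log2 fold change over 8 mice was -0.01 (standard error 0.10, 95% interval -0.20 to 0.19, adjusted p = 0.997). The value was 0.05 in BR1-BR4 (-0.22 to 0.31) and -0.05 in BR7-BR10 (-0.36 to 0.25).

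Gnaq encodes the subunit for which the family is named. Untreated it was at 13.2, 11.8, 6.99 and 15.7 CPM in BR1 to BR4, where BR3 rests on 4 UMIs, and with Bch at 6.02, 18.5, 10.0 and 10.4. In BR7 to BR10 it was at 7.68, 6.36, 5.58 and 6.65 untreated and at 4.18, 11.2, 10.7 and 9.00 with Bch. Gnaq was higher with Bch in 3 of 4 mice of BR7-BR10, with BR7 the exception, and in 2 of 4 of BR1-BR4. Its log2 fold change was 0.46 in BR7-BR10 (-0.29 to 1.22, adjusted p = 0.999), -0.17 in BR1-BR4 (-0.85 to 0.50, adjusted p = 0.952) and 0.14 over 8 mice (-0.37 to 0.64). Pseudogenes within Gnaq held 96, 67 and 18 UMIs of their own, and how reads matching several genes were counted is not given in the sources used here. Without BR1 or without BR4 the value in BR1-BR4 turned to 0.13 or 0.01.

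Plcb3, the phospholipase that Gq subunits activate, was at 44.7, 26.2, 14.0 and 24.9 CPM untreated in BR1 to BR4 and at 30.1, 32.1, 25.5 and 32.2 with Bch. In BR7 to BR10 it was at 32.0, 33.7, 26.4 and 26.3 untreated and at 30.3, 43.8, 45.2 and 28.7 with Bch. It was higher with Bch in 6 of 8 mice, with BR1 and BR7 lower, and the groups overlapped. The log2 fold change over 8 mice was 0.24 (standard error 0.15, interval -0.06 to 0.54, adjusted p = 0.906). Plcb3 overlaps Ppp1r14b on the opposite strand, a gene with 11624 UMIs, and whether counting used the strand is not given in the sources used here, so reads of the pair may have been shared.

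Itpr3 and Itpr2 encode IP3 receptors, the channels through which calcium leaves its store. Itpr3 was between 8.12 and 17.5 CPM in untreated BR1-BR4, with a median of 9.04, and between 6.62 and 13.4 with Bch, with a median of 11.9. In BR7-BR10 it was between 9.68 and 13.4 untreated and between 9.00 and 12.5 with Bch. The highest value, 17.5 in untreated BR3, rests on 10 UMIs. Its log2 fold change over 8 mice was 0.03 (-0.42 to 0.47, adjusted p = 0.994). Itpr2 was too low to be tested and moved apart in the sets. Its UMIs went from 3, 5, 2 and 10 untreated to 3, 3, 0 and 8 with Bch in BR1 to BR4. In BR7 to BR10 they went from 0, 0, 3 and 8 to 2, 12, 9 and 2. Scaled for depth, Itpr2 went from 3.30 ± 1.52 to 1.72 ± 1.66 CPM in BR1-BR4. In BR7-BR10 it went from 0.985 ± 1.20 to 2.45 ± 1.33 CPM (SD, n = 4 mice each). In the fit without the filter its log2 fold change was -0.88 in BR1-BR4 (-2.36 to 0.61) and 1.11 in BR7-BR10 (-0.51 to 2.73). The difference of the responses was 1.98 (-0.17 to 4.12, adjusted p = 1), which does not pass the threshold.

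Prkcd, a kinase that responds to diacylglycerol without calcium, was at 9.58, 12.4, 14.0 and 9.14 CPM untreated in BR1 to BR4 and at 10.8, 6.43, 5.00 and 7.92 with Bch. In BR7 to BR10 it was at 8.32, 12.1, 6.09 and 7.26 untreated and at 15.7, 10.1, 8.50 and 11.1 with Bch. It was thus lower with Bch in 3 of 4 mice of BR1-BR4 and higher in 3 of 4 of BR7-BR10. The log2 fold changes were -0.52 (-1.25 to 0.21) and 0.40 (-0.28 to 1.08), and the test of their difference gave 0.92 (standard error 0.49, interval -0.06 to 1.91, adjusted p = 1). With technical replicate 1 alone this difference was 1.62 and with replicate 2 alone 0.09, neither past the threshold. Prkcd held 8 to 43 UMIs per sum.

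Prkca, a kinase that needs both calcium and diacylglycerol, was at 6.84, 13.1, 24.5 and 16.8 CPM untreated in BR1 to BR4 and at 15.0, 21.9, 19.0 and 18.8 with Bch. In BR7 to BR10 it was at 15.4, 21.6, 24.3 and 10.9 untreated and at 17.8, 22.5, 15.7 and 17.6 with Bch. It was higher in 6 of 8 mice, BR3 and BR9 being lower, and the treated values lay within the range of the untreated ones. The log2 fold change over 8 mice was 0.23 (-0.16 to 0.62, adjusted p = 0.906), from 0.42 in BR1-BR4 (-0.15 to 0.99) and 0.07 in BR7-BR10 (-0.46 to 0.60). The last of these turned to -0.07 with technical replicate 1 alone.

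Rgs2 encodes a GTPase-activating protein that acts chiefly on Gq subunits. It had 6, 3, 3 and 8 UMIs untreated and 3, 19, 11 and 12 with Bch in BR1 to BR4. In BR7 to BR10 it had 7, 2, 7 and 6 untreated and 0, 14, 10 and 4 with Bch. Depth differed within pairs, so that the 3 and 11 UMIs of BR3 were 5.24 and 5.50 CPM. Of the comparisons of Bch with untreated, Rgs2 passed the filter in BR1-BR4 only. There it was 3.50 ± 1.45 CPM untreated and 5.11 ± 2.31 with Bch (SD, n = 4 mice), higher in 3 of 4. It passed chiefly through Bch-treated BR2, BR3 and BR4, at 7.42, 5.52 and 5.97 CPM of all UMIs. The other such sum was untreated BR3, at 5.38 from 3 UMIs. The rise is thus not independent of the filter. The log2 fold change was 0.57 (-0.47 to 1.60, adjusted p = 0.879), and 0.11 without BR2, the mouse with 19 UMIs. Without BR3 or without BR4 Rgs2 gave no value. Without the filter it was -0.05 in BR7-BR10 (-1.34 to 1.23). Its interval in BR1-BR4 was wider than that of 99.3% of the genes tested there.

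**Figure D3:**
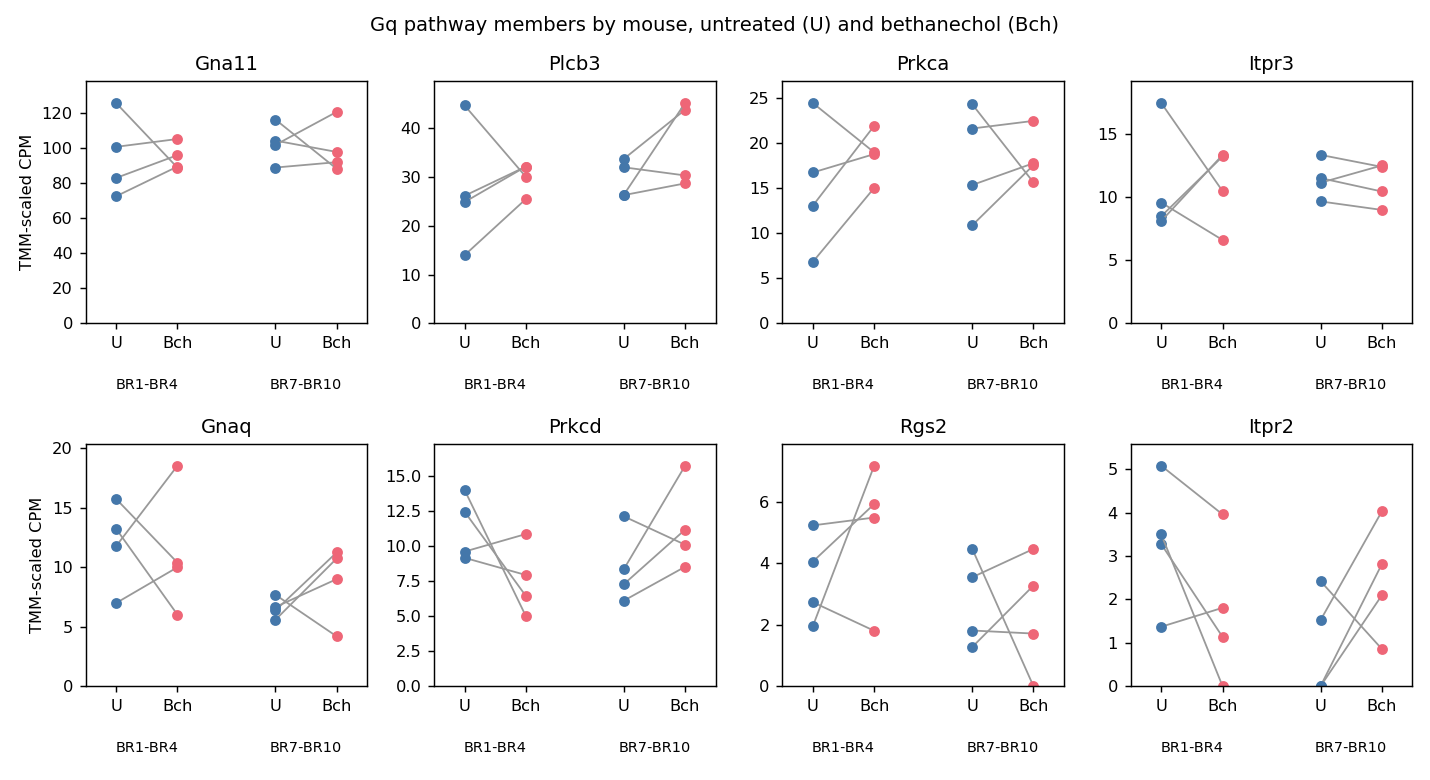
TMM-scaled CPM of the 8 members other than the receptors, each panel from 0 on its own axis, with a line joining the untreated (blue) and bethanechol (red) sums of each mouse, BR1-BR4 on the left and BR7-BR10 on the right of a panel. Lines cross or run both ways in every panel, as for Prkcd, which was lower in 3 of 4 mice on the left and higher in 3 of 4 on the right.

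The Bch responses of the sets were compared gene by gene in 1 fit over the 16 sums. Of the 7 members tested, 0 passed the threshold, as did 0% of 10280 genes by edgeR and by DESeq2. No member had an unadjusted p under 0.05, where 4.39% of genes did. The intervals of these differences were wide, from ± 0.401 on the log2 scale around -0.10 for Gna11 to ± 1.71 around -0.58 for Rgs2, with ± 0.731 as the median of all genes.

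Untreated cells of the sets were compared as a description, since the set stands for sex, kit and source at once. Of 9159 genes 1.64% passed the adjusted threshold, with 0 of the 6 members tested among them. An unadjusted p under 0.05 was reached by 1 of the 6 members, Gnaq, beside 12.7% of genes. Gnaq was 6.57 ± 0.870 CPM in BR7-BR10 and 11.9 ± 3.68 in BR1-BR4 (SD, n = 4 mice). The fitted log2 difference was -0.96 (standard error 0.34, interval -1.65 to -0.26, adjusted p = 0.185). BR3, at 6.99 CPM, lay among the values of BR7-BR10. Gnaq made up 5.32% of the Gq family UMIs in untreated BR7-BR10 and 11.9% in untreated BR1-BR4, and Gna11 made up 86.1% and 82.0%. Several markers moved with the set: 5 of 8 stem genes were lower in BR7-BR10 at an unadjusted p under 0.05, with Ascl2 at -0.51 (adjusted p = 0.0319) and Axin2 at -0.84 (adjusted p = 0.0472) past the threshold and Lgr5 at -0.87 (adjusted p = 0.0592). The summed stem level was 710 to 778 CPM in BR7-BR10 and 896 to 1042 in BR1-BR4, and 4 of 6 colonocyte genes tested were higher in BR7-BR10 at an unadjusted p under 0.05, Aqp8 by 1.81 (adjusted p = 0.0321). Of the enteroendocrine genes 7 of 7 tested were above 0, 3 of them at an unadjusted p under 0.05, with a median log2 difference of 0.69, and of 8 goblet genes 3 were higher and 1 lower at such a p, with a median of 0.48. Their part in the Gnaq value was not tested. The intervals of the other 5 members included 0, from -0.40 (-1.11 to 0.31) for Prkcd to 0.34 (-0.34 to 1.02) for Prkca.

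**Figure D4:**
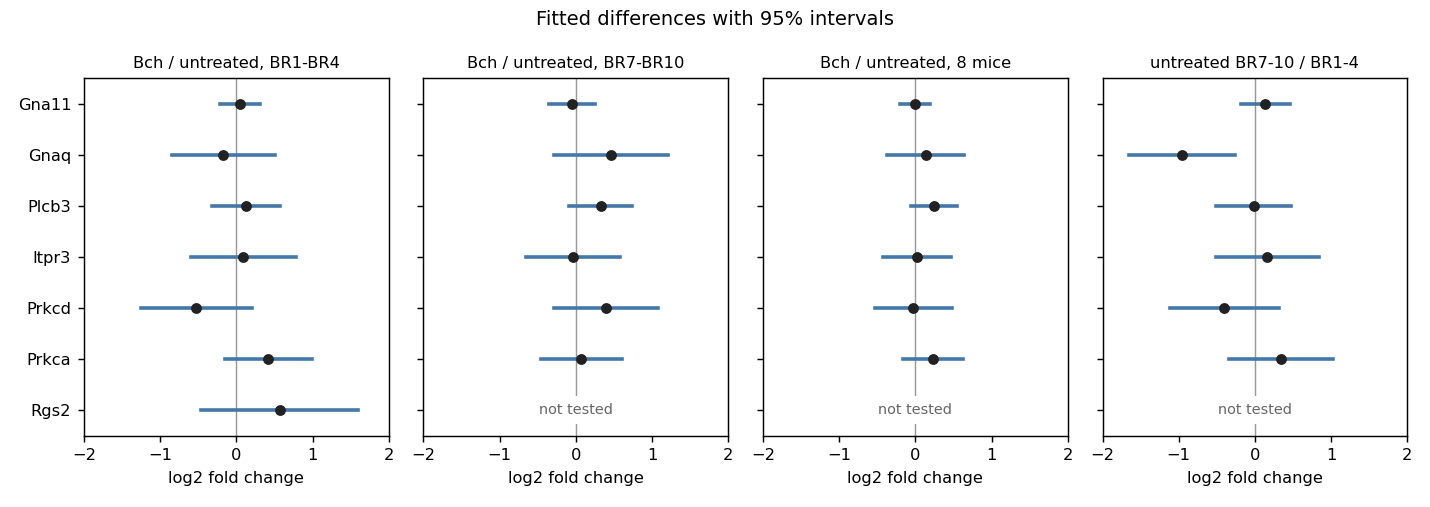
Log2 fold changes (points) and 95% intervals (lines) from edgeR for the members that passed the filter, in BR1-BR4, BR7-BR10 and all 8 mice for bethanechol against untreated, and for untreated BR7-BR10 against untreated BR1-BR4. Every interval of the first 3 panels includes 0, the shortest being that of Gna11, and in the last panel that of Gnaq, from -1.65 to -0.26, does not.

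The wider pathway was followed in 15 lists of 149 genes, of which 128 are listed in the table. Over 8 mice 56 of these genes could be tested and 0 passed the threshold, with 32 above 0 and 24 below and a median log2 fold change of 0.03, beside 0.01 over all genes. In BR7-BR10 0 of 59 and in BR1-BR4 0 of 58 passed. Atp2a2, the pump that returns calcium to the endoplasmic reticulum, was the one gene of the 56 with an unadjusted p under 0.05 over 8 mice, where 5.45% of all genes had one. It was higher with Bch in 8 of 8 mice, where 0.961% of all genes moved one way in every mouse, by 0.27 on the log2 scale (0.01 to 0.52, adjusted p = 0.906), from 31.5 ± 8.40 to 39.8 ± 10.5 CPM in BR7-BR10 and from 37.0 ± 8.02 to 43.2 ± 11.1 in BR1-BR4 (SD, 4 mice each). Stim1, the calcium sensor of the store, was at 0.46 (-0.06 to 0.99), and the calmodulin-dependent kinase Camk2d at 0.29 (-0.02 to 0.61), also higher in 8 of 8 mice. Atp2a2, Stim1 and Camk2d were named for their small p over these same 8 mice. Their agreement across the mice is therefore not separate support.

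The remaining named genes of the lists did not pass either. Among receptors that couple to Gq other than muscarinic ones, F2rl1, the protease receptor PAR2, was at 32.5 CPM, the nucleotide receptors P2ry6 and P2ry1 at 18.6 and 14.7, and the fatty acid receptor Ffar2 at 14.7, each above Chrm1 in every sum. P2ry6 changed by -0.23 (-0.58 to 0.13) and the lysophosphatidic acid receptor Lpar1 by -0.26 (-0.78 to 0.26) over 8 mice. Of the alpha subunits, Gna14 was at -0.05 (-0.69 to 0.59), and Gna12 and Gna13 were at 0.40 (-0.16 to 0.96) and 0.19 (-0.11 to 0.48). The beta subunit Gnb1 was at -0.11 (-0.26 to 0.05) and the gamma subunit Gng12 at -0.13 (-0.31 to 0.05). Dgkz and Dgkd, kinases that remove diacylglycerol, were at -0.11 and 0.12, the kinases Prkcz and Prkd3 at 0.16 and 0.12, and Rgs19 at -0.14. The arrestins Arrb1 and Arrb2, which end receptor signalling, were at -0.35 (-0.99 to 0.29) and 0.23 (-0.17 to 0.64), and calmodulin Calm3 at -0.14 (-0.30 to 0.02).

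In BR1-BR4 alone, Ppp3cb and Ppp3r1, subunits of the calcium-activated phosphatase calcineurin, reached an unadjusted p under 0.05, as did 7.72% of all genes. Like Dgka, they are named after their values were seen. Both were lower in 4 of 4 mice by -0.65 (adjusted p = 0.590) and -0.53 (adjusted p = 0.577). In BR7-BR10 Ppp3cb and Ppp3r1 were higher in 3 of 4 mice, by only 0.03 (-0.52 to 0.57) and 0.11 (-0.32 to 0.55). Markers moved in the same comparisons, with none past the adjusted threshold. Lgr5 was lower with Bch in 3 of 4 mice of BR1-BR4, by -0.66 (adjusted p = 0.358), and higher in 4 of 4 of BR7-BR10, by 0.49 (adjusted p = 0.999), a difference of 1.15 between the sets (0.50 to 1.80, adjusted p = 1). At an unadjusted p under 0.05, 1 of 8 stem genes, 2 of 5 colonocyte genes and 1 of 7 goblet genes were lower in BR1-BR4. In BR7-BR10, 1 of 8 stem genes was higher and 1 lower, 1 of 7 enteroendocrine genes was higher and 1 lower, and 2 of 8 goblet genes were higher. Their part in the values of the members and lists was not tested. The difference between the sets had an unadjusted p under 0.05 for Ppp3r1 (0.65), Arrb1 (1.29) and the diacylglycerol kinase Dgka (2.08). Each had an adjusted p of 1, where 4.39% of all genes had such an unadjusted p. The Dgka interval was 0.47 to 3.70, from 134 UMIs in the 16 sums. Between untreated sets, 6 of 59 genes of the lists reached an unadjusted p under 0.05, where 12.7% of all genes did, and 0 the adjusted threshold. Besides Gnaq these were the calcium pumps Atp2c2 (0.89, adjusted p = 0.155) and Atp2c1 (-0.59), calmodulin Calm3 (0.28), the gamma subunit Gng5 (0.28) and the arrestin Arrb2 (-0.68), of which Atp2c2, Atp2c1 and Gng5 are named after their values were seen.

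Across the 16 sums, the genes whose log2 CPM was most like that of a member were named as a description. They were Tpm3-rs7 (Pearson r = 0.875) and Ctbp2 (0.821) for Gnaq, Sirt3 (0.834) and Cab39l (0.809) for Gna11, Gm44219 (0.902) and Pigs (0.885) for Plcb3, and Tor1aip2 (0.839) and Jkamp (0.805) for Itpr3. For Prkcd they were Emp2 (0.829) and Lrpprc (0.815), for Prkca Kmt2a (0.801) and Chd2 (0.796), and for Rgs2 Gm24951 (0.884) and Pdcd4 (0.843). None of these is a member. Between members r ran from -0.64 for Prkcd and Rgs2 to 0.620 for Gnaq and Rgs2, with -0.38 for Gnaq and Gna11. The sums share mice, sets and depth, and genes with few UMIs follow depth, so these values order genes and test nothing.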

How the data were processed

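The values the authors deposited are counts of UMIs, not normalized, for each gene in 32 mouse libraries. They had made barcoded oligo-dT cDNA and processed the reads with the Drop-seq pipeline on GRCm38. Human colonoids were not analysed here. Blank cells of 1520 genes in technical replicate 2 were read as 0. The 2 technical replicates of each mouse and treatment were added up. Genes passing filterByExpr were fitted with edgeR 4.0.16 (TMM, robust quasi-likelihood test) in R 4.3.3, with the mouse as a block, over all genes, and p-values were adjusted by Benjamini-Hochberg. Unfiltered members were given as counts with exact Poisson intervals (95%) and a limit of 3 UMIs. Levels are TMM-scaled CPM, or CPM of all UMIs for receptors, and ratios per mouse used a prior count of 2. The pairing comes from the labels, since same-numbered sums are 1 mouse. Deviations of the pairs from group means correlated at -0.02 to 0.244. Steps were tested on simulated data. Alternatives covered the block, DESeq2 1.42.0, its size factors, the filter, single technical replicates and each mouse left out.

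The members and lists were chosen with earlier results of these data known. Named genes were the members, genes of each list past the threshold or otherwise up to 2 with the smallest p over 8 mice, and the 2 genes most like each member over 16 sums. Results of 2 genes of the lists are not reported here. Positions come from GENCODE M21.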

Additional observations from a re-analysis of the deposited data

Results flagged for a closer look

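In 40 groups of 4 mice, Dixon's test at the 95% level set 4 values apart. In 3 of them a single mouse had UMIs and the other 3 had none, where the test flags any value, so its chance rate of about 1 group in 20 does not hold for them. Untreated BR4 had Chrm1 at 1.02 CPM where the other 3 mice of its group had 0 UMIs. Chrm3 was at 1.21 CPM in untreated BR10 and at 0.500 CPM in Bch-treated BR3, again with 0 UMIs in the other 3 mice of the group. Itpr3 was at 17.5 CPM in untreated BR3, the shallowest sum, against at most 9.58 in the other 3 untreated mice of BR1-BR4, and rests on 10 UMIs.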

How the results depend on the processing

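Of 753 recomputed values, 685 kept their direction, their side of the threshold or their size, and no member passed the threshold under any alternative that gave an adjusted p, nor over 8 mice did a list gene named by the rule. Other list genes, and list genes within a set, were not recomputed. In BR1-BR4 the 2 genes called in all became 0 with no replicate block, 0 with the 16 sums in 1 fit, 14 with DESeq2, 88 with no filter and 9 with technical replicate 1 alone. Over 8 mice the 0 genes became 15 with no filter and 1 with technical replicate 1 alone, for the difference between the sets 1 with no filter, and between untreated sets the 150 genes became 234 with no filter. The mouse block changed no other call. With 1 mouse left out, the calls ran from 0 to 4 in BR7-BR10 (4 without BR9), from 0 to 19 in BR1-BR4 (19 without BR4) and from 74 to 210 between untreated sets (74 without BR2, 210 without BR10).

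Members with small fold changes changed sign, and the cause was not tested. With technical replicate 1 alone, Prkca in BR7-BR10 was -0.0662, and over 8 mice Gna11 was 0.0165, Itpr3 -0.0437, Prkcd 0.0152, and the differences of Chrm1 and Chrm3 were 0.0579 and 0.0835 CPM. With replicate 2 alone, Itpr3 was 0.27 in BR7-BR10 and 0.29 for the difference between the sets, and Dgkz was 0.0472. DESeq2 gave Plcb3 as 0.0116 between untreated sets.

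Leaving out 1 mouse gave these log2 ranges where a sign changed. In BR7-BR10 Gna11 ran from -0.16 to 0.0778 and Prkca from -0.14 to 0.32, and in BR1-BR4 Gnaq from -0.53 to 0.13, Gna11 from -0.0433 to 0.19 and Itpr3 from -0.15 to 0.32. Over 8 mice Gna11 ran from -0.0531 to 0.0543, Itpr3 from -0.0795 to 0.11, Prkcd from -0.15 to 0.11, Gna14 from -0.23 to 0.27 and Prkd3 from -0.0642 to 0.28. Between the sets the difference ran from -0.23 to 0.0344 for Gna11, from -0.0923 to 0.32 for Plcb3 and from -0.34 to 0.13 for Itpr3, and untreated Plcb3 from -0.15 to 0.33. The Chrm1 difference ran from -0.37 to 0.172 CPM over 8 mice and from -0.0405 to 0.719 in BR1-BR4, and that of Chrm3 from -0.39 to 0.064 over 8 mice and from -0.15 to 0.625 in BR7-BR10. Gnaq between untreated sets stayed between -1.06 and -0.81, with an adjusted p never below the threshold, but could not be fitted with single technical replicates, where it failed the filter. Depth limits the receptors, Itpr2 and Rgs2 most.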
